A study of Mus musculus with 34 samples.

Results

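Collagens are the main structural proteins of the extracellular matrix, and their genes were followed here through brown adipogenesis. The members were the genes whose symbol has the form Col, number, a, number, which gave 43 collagen genes among 23109 genes with a value. They comprised 11 fibrillar, 6 basement membrane and 26 other collagen genes. Of the 43, 6 had more than 1 RefSeq transcript and were represented by the one whose RPKM was highest on average. In all, 18 genes reached an RPKM of 5 or more somewhere among the libraries and are described by name, 10 peaked between 1 and 5, and 15 stayed under 1 in every library.

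Each collagen is built of alpha chains that wind into a triple helix, and each Col gene encodes 1 such chain. The chains of collagens I, III and V form the banded fibrils that carry tension in connective tissue. Collagen IV chains form the sheet-like network of basement membranes, to which every mature fat cell is attached, and collagen VI forms beaded filaments between that sheet and the fibrils. Fat cell precursors are fibroblast-like cells that make a fibrillar matrix, and differentiating fat cells are known for exchanging it for a basement membrane.

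The RNA-Seq data came from SV40T-immortalized brown preadipocytes, isolated from interscapular BAT of newborn pups and labelled as C57BL/6J and GR-flox/flox, that is, carrying floxed alleles of the glucocorticoid receptor gene. The labels mention infection with Vec or with Cre, which would delete that receptor, and do not say which of these the RNA libraries received. In the first experiment these cells carried a retrovirus for histone H3.3 with a FLAG tag, either WT or with the K36M mutation, and were collected at D0, D2 and D7 of adipogenesis. H3.3K36M carries methionine in place of lysine 36 and lowers methylation at that residue of histone H3. In the second experiment the WT and K36M cells also carried ectopic PPARγ, the nuclear receptor that drives adipogenesis. They received DMSO (labelled 0 h) or the PPARγ ligand rosiglitazone (Rosi) for 24 h. The paper describes the cells of this experiment as sub-confluent preadipocytes. In the third experiment cells carried a lentiviral Ctrl shRNA or an shRNA against Nsd2, an H3K36 methyltransferase (KD cells), and were collected at D0 and D2. The 14 conditions had 1 library each, so no test between conditions was possible. The labels do not name the shRNA used. Until D2 the medium held insulin, T3, IBMX, dexamethasone and indomethacin and afterwards insulin and T3, so an effect of these agents on collagen genes and an effect of differentiation cannot be told apart.

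The libraries held 12213559 to 24365867 mapped reads. Preadipocyte markers (Pdgfra, Pdgfrb, Cd34, Ly6a and Dlk1) reached an RPKM of at least 1 for 5 of 5 genes. Of 6 brown adipocyte markers, 4 reached 1, whereas Ucp1 and Cidea, which define thermogenic fat cells, stayed at or near 0 in every library, with highest RPKM values of 0.194 and 0.0973. The summed RPKM of endothelial, macrophage, osteoblast and epithelial markers did not exceed 2.47, 3.07, 2.45 and 1.62. The macrophage sum was over 3 of 4 listed genes, as Cd68 had no value. Skeletal muscle markers summed to 0.277 to 67.7, the highest in PPARγ-expressing K36M cells with DMSO, where Acta1 alone was at 67.5, while Myod1 and Myog stayed under 0.1. Of the cartilage markers, Acan was near 0 throughout (highest RPKM 0.1) and Sox9 lay between 1.24 and 30.5. In bulk RNA, fewer cells making a collagen and less collagen RNA per cell cannot be told apart.

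A gene was called higher or lower in a comparison when its RPKM differed over 2-fold and reached at least 1 in at least 1 of the 2 libraries, and the share of all genes called by the same rule is given as background. RPKM scales reads by the length of the transcript and the mapped reads of the library, so levels can be compared between genes. Brackets give the 95% counting interval of a log2 ratio, computed from whole reads recovered from the RPKM values, and cover counting error only.

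Collagen RNA was abundant in these cells and was made up of different classes in different conditions. The 43 genes took from 0.406% (KD cells at D2) to 1.56% (Ctrl cells at D0) of the summed RPKM of a library. Of this collagen RNA, the fibrillar class made up from 8.1% in WT cells at D2 to 73.9% in Ctrl cells at D0, and the basement membrane class from 4.67% in Ctrl cells at D0 to 31.5% in KD cells at D2. The highest single level was that of Col1a1, the major chain of collagen I, with an RPKM of 1678 in Ctrl cells at D0. Among the named fibrillar genes Col2a1, the collagen of cartilage, had the largest ratio of highest to lowest RPKM. It ran from 0.0919 in KD cells at D2, a value that rested on 8 reads, to 39.9 in Ctrl cells at D0. By the same ratio Col5a1, which starts the assembly of collagen I fibrils, varied least of the 18 named genes, from 50.9 to 118.

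**Figure D1:**
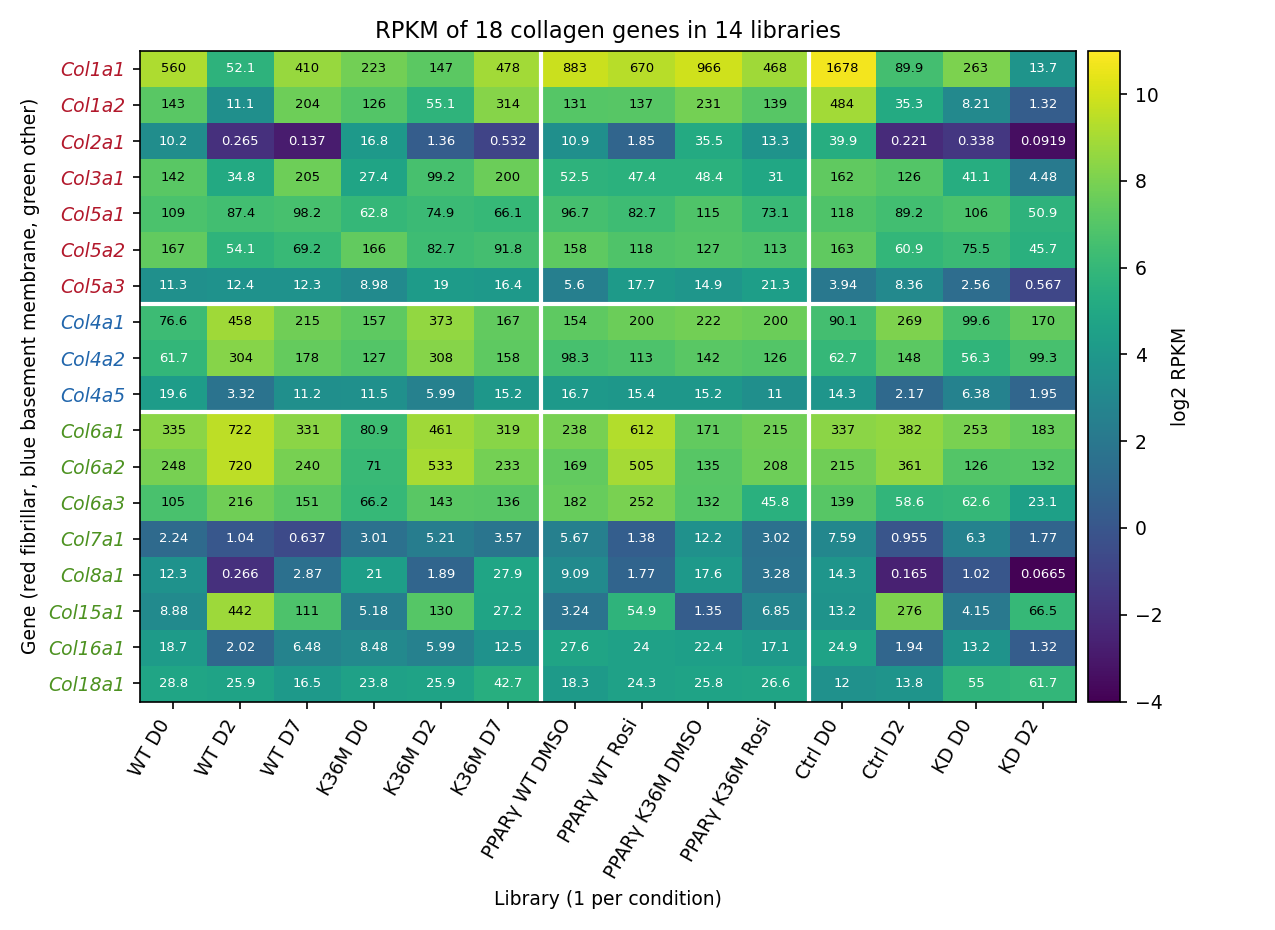
RPKM of the 18 named collagen genes (rows, grouped as fibrillar, basement membrane and other) in the 14 libraries (columns, 1 per condition), with log2 RPKM as colour and RPKM printed in each cell. Col1a1 reaches 1678 in Ctrl cells at D0 and is at 13.7 in KD cells at D2, while Col4a1 stays between 76.6 and 458.

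Some of these genes are neighbours in the genome. In the GENCODE M1 annotation of mm9, Col4a1 (chr8:11198423-11312826, minus strand) and Col4a2 (chr8:11312805-11449287, plus strand) lie head to head and overlap by 22 bases at their starts, where reads of the pair cannot be told apart without strand. Col4a5 and Col4a6 on chromosome X have the same arrangement, 1308 bases apart, and so have Col4a3 and Col4a4 on chromosome 1, 71 bases apart. Col3a1 (chr1:45368383-45406551) and Col5a2 (chr1:45431166-45560127) lie tail to tail with 24614 bases between them, and Col6a2 and Col6a1 lie on chromosome 10 in the same direction, 85161 bases apart.

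The start regions of Col4a1 and Col4a2 are shown because the RNAs of this pair kept close to each other in the libraries described below, and that of Col1a2 because its RNA parted from that of its partner Col1a1 in KD cells. They are RefSeq windows from 250 bases before to 50 bases after the gene start, in GRCm38.p6, each read 5′ to 3′ on its gene's strand. The Col4a1 window is chr8:11312777-11313076 on the minus strand and the Col4a2 window is chr8:11312555-11312854 on the plus strand. Capitals mark the 78 bases (chr8:11312777-11312854) that both windows hold, which read as reverse complements of each other. The Col1a2 window is chr6:4505368-4505667 on the plus strand, and its capitals mark the letters CCAAT and their reverse complement.
Col4a1: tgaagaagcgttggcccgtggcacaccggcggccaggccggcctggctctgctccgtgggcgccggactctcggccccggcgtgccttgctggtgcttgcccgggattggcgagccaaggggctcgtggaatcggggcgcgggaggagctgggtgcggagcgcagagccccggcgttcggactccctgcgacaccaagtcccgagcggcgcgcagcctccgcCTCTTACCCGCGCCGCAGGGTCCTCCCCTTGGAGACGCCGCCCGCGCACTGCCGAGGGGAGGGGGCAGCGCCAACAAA
Col4a2: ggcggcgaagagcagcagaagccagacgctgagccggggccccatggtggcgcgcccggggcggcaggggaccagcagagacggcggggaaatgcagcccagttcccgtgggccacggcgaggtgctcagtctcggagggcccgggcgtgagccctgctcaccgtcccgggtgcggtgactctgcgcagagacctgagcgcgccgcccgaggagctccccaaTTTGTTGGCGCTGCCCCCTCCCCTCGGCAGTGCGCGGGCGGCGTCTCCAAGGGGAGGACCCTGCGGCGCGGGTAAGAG
Col1a2: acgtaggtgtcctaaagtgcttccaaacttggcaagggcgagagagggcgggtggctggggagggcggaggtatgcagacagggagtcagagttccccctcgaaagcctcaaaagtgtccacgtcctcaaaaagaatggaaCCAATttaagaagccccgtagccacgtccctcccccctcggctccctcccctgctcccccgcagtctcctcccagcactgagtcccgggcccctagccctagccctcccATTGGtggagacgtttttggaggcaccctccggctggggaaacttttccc
CCAAT on either strand occurred in 37.4% of all 32851 promoter windows and in 13 of the 38 windows of 35 collagen genes (34.2%). Of the 17 windows of 15 named genes, 8 held it, namely those of Col1a2, Col4a1, Col4a2, Col4a5, Col5a3, Col7a1, Col16a1 and Col18a1. TATAAA occurred in 13.6% of all windows and 13.2% of the collagen windows, and of the named genes Col3a1 had it. These are matches of letters and do not show that a factor binds there. Col1a1, Col2a1 and Col5a2 are the named genes for which no window was used.

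To see how the matrix genes behaved during adipogenesis, WT cells were compared between D0, D2 and D7. From D0 to D2 the collagen RNA of WT cells changed from mostly fibrillar to mostly Col4a1, Col4a2, collagen VI and Col15a1. The summed RPKM of the fibrillar genes ran from 1144 (D0) through 255 (D2) to 1003 (D7), that of the basement membrane genes 159, 765 and 405, and that of the other genes 765, 2130 and 866. Fibrillar RNA was thus 4.48-fold lower at D2 than at D0 while basement membrane RNA was 4.8-fold higher, and by D7 both had moved back toward the level at D0.

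Among the fibrillar genes, 5 of the 9 counted were lower at D2 than at D0, against 17.3% of all genes. Of the same 9, 1 was higher, close to the share of all genes (9.38%). On the 3 days in order, Col1a1 had RPKM values of 560, 52.1 and 410, and its log2 ratio of D2 to D0 was -3.43 [-3.47 to -3.38]. Col1a2, the second chain of collagen I, was at 143, 11.1 and 204, with a log2 ratio of -3.68 [-3.77 to -3.59]. Col3a1, whose collagen III mixes with collagen I in elastic tissues, was at 142, 34.8 and 205. These 3 genes shared a trough at D2, and from D2 to D7 they were 7.86-fold, 18.3-fold and 5.87-fold higher. Col5a2 was 3.08-fold lower at D2 (167 at D0 and 54.1 at D2) and reached 69.2 at D7, without a call. Col5a1 (109, 87.4 and 98.2) and Col5a3 (11.3, 12.4 and 12.3) of the same collagen V had no call at either step. Col2a1 was at 10.2, 0.265 and 0.137.

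The basement membrane genes split within the class. Col4a1 and Col4a2, the chains of the collagen IV found in nearly every basement membrane, were higher at D2 than at D0. Col4a1 went from an RPKM of 76.6 to 458, a log2 ratio of 2.58 [2.55 to 2.61], and was at 215 at D7. Col4a2 went from 61.7 to 304, a log2 ratio of 2.30 [2.27 to 2.33], and was at 178 at D7. Col4a5, a chain of the collagen IV of kidney and smooth muscle, went the other way, with 19.6, 3.32 and 11.2, and its head-to-head neighbour Col4a6 was at 1.43, 0.0787 and 0.542.

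The steepest change among the named genes was that of Col15a1, a multiplexin that links basement membranes to the fibrils beneath them. Its RPKM values were 8.88, 442 and 111, and the log2 ratio of D2 to D0 was 5.64 [5.55 to 5.73], or 49.8-fold. The collagen VI genes were higher at D2 by smaller factors, with 335, 722 and 331 for Col6a1, 248, 720 and 240 for Col6a2, and 105, 216 and 151 for Col6a3. Col18a1, the other multiplexin and the source of endostatin, stayed at 28.8, 25.9 and 16.5. Lower at D2 were Col16a1, a fibril-associated collagen (18.7, 2.02 and 6.48), Col8a1, a chain of the short-chain network of vessel walls (12.3, 0.266 and 2.87), and Col7a1, the anchoring fibril of skin (2.24, 1.04 and 0.637). Col28a1 was at 2.21, 0.0495 and 2.73, and its value at D2 rested on 4 reads.

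Counted over the collagen genes, 7 of 23 were called higher at D2 than at D0 in WT cells, against 9.38% of all genes, and 11 were called lower, against 17.3%. From D2 to D7, 8 of 22 were higher, against 15.7% of all genes, and 5 were lower, against 5.08%. The median log2 ratio of the counted genes was -0.33 at the first step and -0.01 at the second, and over all genes expressed in both libraries it was 0.03 and -0.00.

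Markers of other states moved in the same libraries. The summed RPKM of 4 myofibroblast and smooth muscle markers (Acta2, Tagln, Cnn1 and Myh11) on the same days in WT cells was 677, 12.7 and 115, of which Acta2 alone was 529, 7.73 and 80.7. Preadipocyte markers summed to 328, 56.0 and 290. Both were lowest at D2, as Col1a1 was, and their part in the collagen values was not tested.

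**Figure D2:**
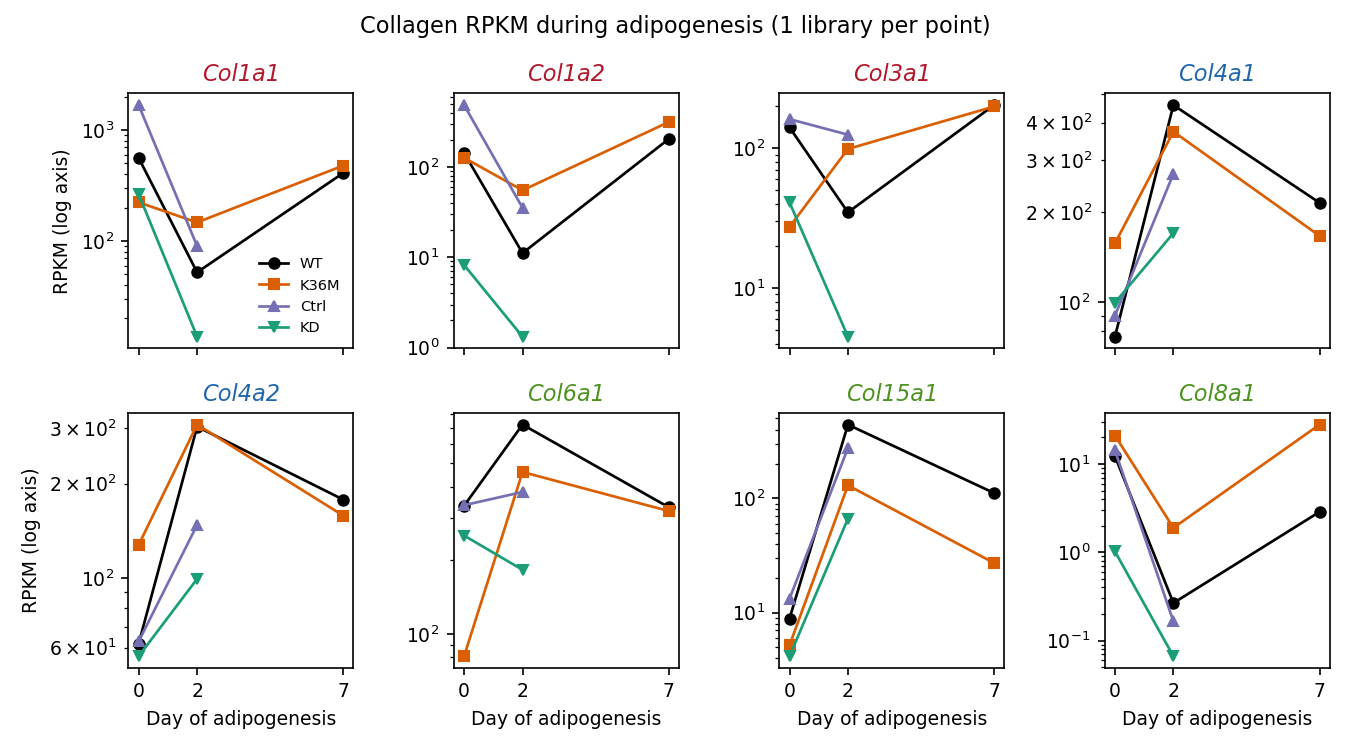
RPKM (log axis, a different range in each panel) of 8 collagen genes against day of adipogenesis in WT, K36M, Ctrl and KD cells, with 1 library per point and no error bars. In WT cells Col1a1 dips from 560 to 52.1 at D2 while Col15a1 climbs from 8.88 to 442, and in KD cells Col1a2 lies below the other cells at both days.

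K36M cells went through the same days. Their fibrillar RNA had a shallower trough, with sums of 633, 485 and 1169, and Col3a1 moved the other way. Col4a1, Col4a2, the collagen VI genes and Col15a1 were higher at D2 than at D0, as they were in WT cells.

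Col1a1 in K36M cells had RPKM values of 223, 147 and 478. Its log2 ratio of D2 to D0 was -0.60 [-0.64 to -0.56] and was not called. Col1a2 was at 126, 55.1 and 314, and was 2.29-fold lower at D2. Col3a1 was at 27.4, 99.2 and 200, a log2 ratio of 1.86 [1.79 to 1.92] from D0 to D2, whereas the ratio in WT cells was -2.02 [-2.08 to -1.97]. Col5a3 was 2.12-fold higher at D2, from 8.98 to 19.0. Col4a1 (157, 373 and 167) and Col4a2 (127, 308 and 158) were 2.37-fold and 2.42-fold higher at D2, starting from a higher level than in WT cells, and Col4a5 was at 11.5, 5.99 and 15.2. Col6a1 (80.9, 461 and 319) and Col6a2 (71.0, 533 and 233) were 5.7-fold and 7.5-fold higher at D2, starting from a lower one. Col15a1 went from 5.18 to 130, which was 25.1-fold, and was at 27.2 at D7.

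Of 22 collagen genes counted in K36M cells, 12 were called higher at D2 than at D0, against 10.2% of all genes, and 4 were called lower, against 11.2%. The 4 lower genes were Col1a2, Col2a1, Col5a2 (2.01-fold, a call that rescaling by the median ratio removed) and Col8a1. From D2 to D7, 10 of 26 were higher, against 15.7%, and 7 were lower, against 7.02%. The genes higher at D7 included Col1a1 and Col1a2 again, together with Col8a1, which went from 1.89 to 27.9, and Col3a1, whose 2.02-fold call was lost on rescaling by the median ratio. The summed myofibroblast markers of K36M cells were 637, 84.8 and 353 and the adipocyte markers 25.5, 1543 and 198, the latter against 46.3, 3500 and 3307 in WT cells. Fabp4 made up most of the adipocyte sums, with 1473 in K36M and 3249 in WT cells at D2. Cebpa (44.9 against 208) and Plin1 (14.2 against 36.8) were also lower in K36M cells at D2, whereas Adipoq was at 10.6 against 6.16. From D2 to D7 Adipoq rose to 21.0 in K36M and to 287 in WT cells, while both sums fell.

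K36M cells were then set against WT cells at each day. With 1 library each, K36M and the separate preparation of the cells cannot be told apart. Differences between Ctrl and WT cells, both without K36M, are given with the knockdown below. At D0 the K36M cells had less RNA of Col1a1, Col3a1, Col6a1 and Col6a2 and more of Col4a1 and Col4a2. Col1a1 was 2.51-fold lower, Col3a1 5.17-fold lower, Col6a1 4.14-fold lower and Col6a2 3.49-fold lower than in WT cells. Col1a2 (126 against 143) and Col6a3 (66.2 against 105), chains of the same collagens I and VI, were not called. Of the other collagen IV genes, Col4a6 was lower (0.56 against 1.43) and Col4a5 was not called (11.5 against 19.6). Col4a1 and Col4a2 were 2.06-fold and 2.07-fold higher, just past the 2-fold limit, and both lost the call when the libraries were rescaled to a median ratio of 1. Counted over 21 genes, 2 were higher, against 5.02% of all genes, and 7 were lower, against 6.36%.

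At D2 the collagen I and III genes lay the other way. Col1a1 was 2.82-fold, Col1a2 4.96-fold and Col3a1 2.85-fold higher in the K36M cells, and Col2a1 (1.36 against 0.265), Col7a1 (5.21 against 1.04), Col8a1 (1.89 against 0.266) and Col16a1 (5.99 against 2.02) were higher as well. Col4a1 had a log2 ratio of -0.30 [-0.32 to -0.28] and Col4a2 of 0.02 [-0.00 to 0.04]. Col15a1 was lower in K36M cells, 130 against 442, a log2 ratio of -1.76 [-1.80 to -1.73]. Of 22 genes counted, 10 were higher, against 11.2% of all genes, and Col15a1 was the 1 lower, against 4.37%. The summed myofibroblast markers were 84.8 in K36M and 12.7 in WT cells in the same libraries. Preadipocyte markers summed to 134 in K36M against 328 in WT cells at D0, to 131 against 56.0 at D2 and to 630 against 290 at D7, and the part of either set in the collagen values was not tested.

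By D7 the collagen I and III genes lay within 2-fold in the K36M and WT cells. Col1a1 was at 478 in K36M and 410 in WT cells, Col1a2 at 314 and 204, Col3a1 at 200 and 205, and Col6a1 at 319 and 331. Col15a1 remained lower in K36M cells (27.2 against 111), and Col8a1 (27.9 against 2.87), Col7a1 (3.57 against 0.637) and Col18a1 (42.7 against 16.5) were higher. Col11a1, a fibrillar collagen of cartilage, was 5.67-fold lower, 0.754 against 4.27. Counted over 25 genes, 7 were higher, against 11.7% of all genes, and 2 were lower, against 8.46%. The median log2 ratio over all genes was 0.11 at this day.

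**Figure D3:**
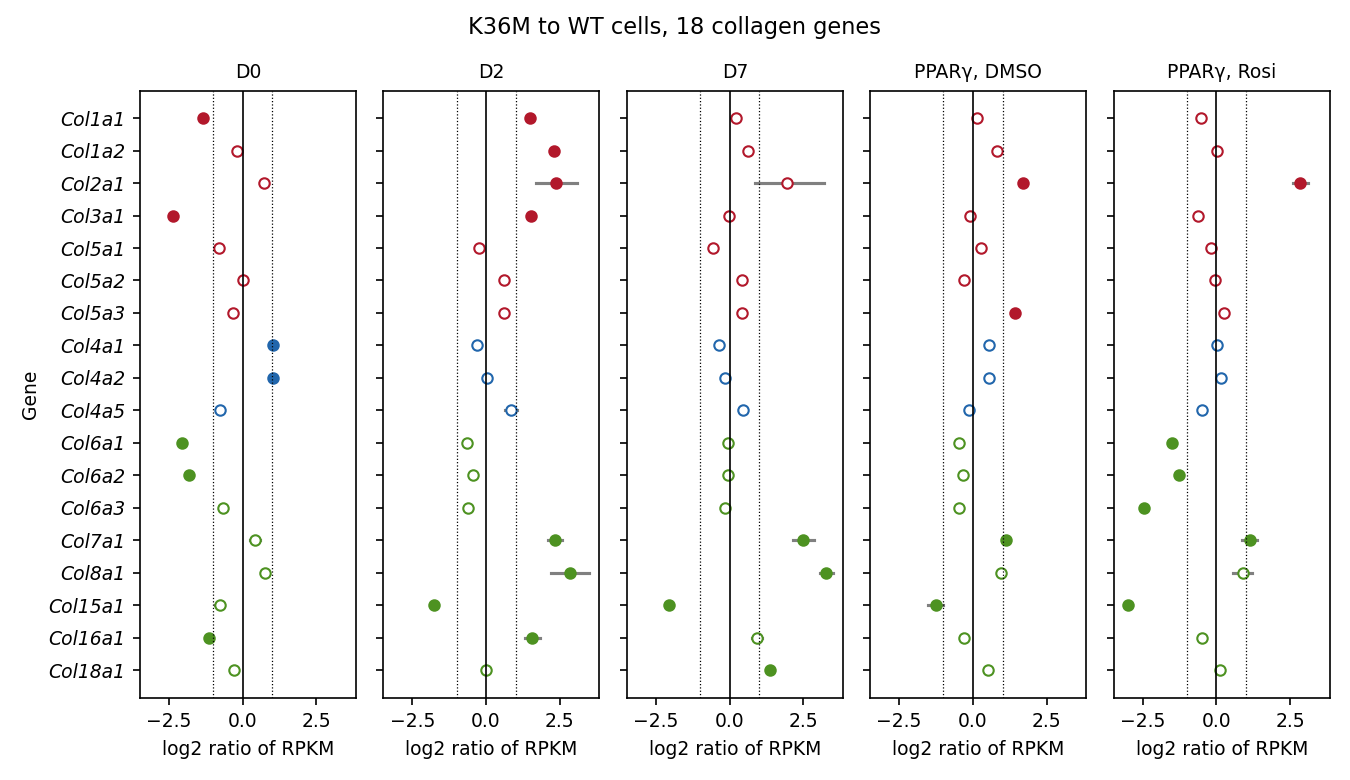
log2 ratio of RPKM in K36M to WT cells for the 18 named collagen genes at D0, D2 and D7 and in PPARγ-expressing cells with DMSO or Rosi. Filled points are called, open points are not, grey bars are 95% counting intervals and dotted lines mark 2-fold, and Col15a1 lies left of 0 in all 5 panels while Col1a1 lies left at D0 (-1.33) and right at D2 (1.49).

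In PPARγ-expressing cells, which were sub-confluent and not exposed to the induction cocktail, Rosi was compared with DMSO. The paper describes DMSO or Rosi for 24 h, whereas the labels give 0 h for the DMSO libraries. If these were collected at 0 h, the ligand and 24 h of culture cannot be told apart. In WT cells Rosi went with more RNA of Col6a1, Col6a2 and Col15a1. Col1a1, Col1a2, Col3a1 and the counted collagen IV genes were within 2-fold. Col15a1 was at 3.24 with DMSO and 54.9 with Rosi, a log2 ratio of 4.08 [3.93 to 4.24]. Col6a1 went from 238 to 612 and Col6a2 from 169 to 505, whereas Col6a3 (182 and 252) was not called. Col5a3, a minor chain of collagen V, was 3.17-fold higher, from 5.6 to 17.7. Col2a1 (10.9 and 1.85), Col7a1 (5.67 and 1.38) and Col8a1 (9.09 and 1.77) were lower.

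Col1a1 was at 883 with DMSO and 670 with Rosi, Col1a2 at 131 and 137, and Col3a1 at 52.5 and 47.4, and none was called. Col4a1 (154 and 200) and Col4a2 (98.3 and 113) were not called either. Over 20 genes counted, 4 were higher, against 9.96% of all genes, and 3 were lower, against 5.05%. The summed myofibroblast markers were 1772 with DMSO and 383 with Rosi, and their part in the collagen values was not tested.

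In PPARγ-expressing K36M cells most calls with Rosi against DMSO were lower ones. Col15a1 was again higher, from 1.35 to 6.85, a log2 ratio of 2.34 [2.09 to 2.60]. Col6a1 (171 and 215) and Col6a2 (135 and 208) were not called, and Col6a3 was 2.88-fold lower, from 132 to 45.8. Col1a1 was 2.06-fold lower, from 966 to 468, next to the limit, and Col2a1, Col7a1, Col8a1 and Col27a1 were lower too. Of 22 genes counted, 2 were higher, against 7.9% of all genes, and 6 were lower, against 8.85%. The summed myofibroblast markers were 1491 and 474, and their part was not tested.

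Between the K36M and WT cells of that experiment, 4 of 20 collagen genes were higher in K36M cells with DMSO, against 5.09% of all genes, and Col15a1 was lower, against 3.11%. The higher genes were Col2a1 (35.5 against 10.9), Col5a3 (14.9 against 5.6), Col7a1 (12.2 against 5.67) and Col9a3 (1.1 against 0.275). With Rosi, 3 of 22 were higher, against 7.02%, and 5 were lower, against 12.1%. The lower ones were the collagen VI chains Col6a1 (2.84-fold), Col6a2 (2.43-fold) and Col6a3 (5.49-fold), Col15a1 (8.01-fold) and Col28a1 (2.56-fold). Col1a2 was at 139 and 137, and Col4a1 at 200 and 200 in K36M and WT cells with Rosi. The 4 ratios of this experiment share libraries and are given side by side.

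**Figure D4:**
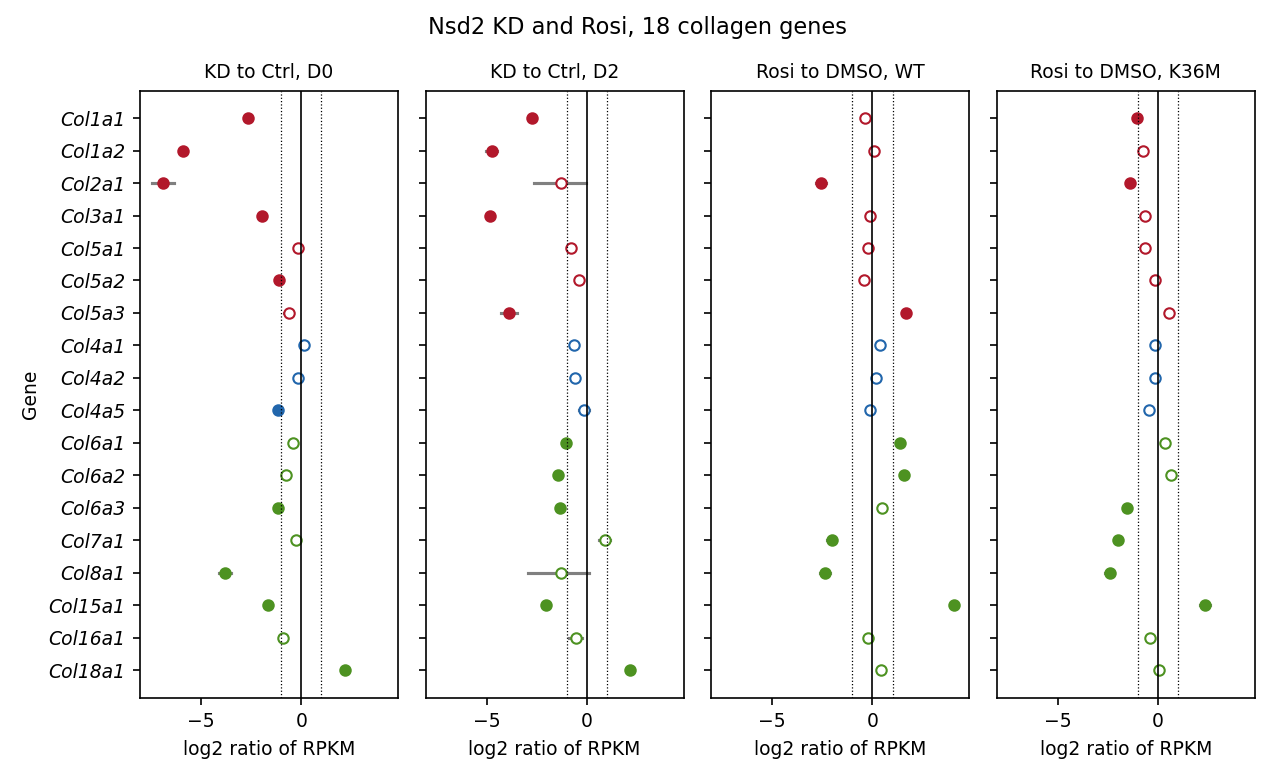
log2 ratio of RPKM of the 18 named collagen genes for KD to Ctrl cells at D0 and D2 and for Rosi to DMSO in PPARγ-expressing WT and K36M cells. Filled points are called, open points are not, grey bars are 95% counting intervals and dotted lines mark 2-fold, and Col1a2 lies at -5.88 and -4.74 in the KD panels while Col15a1 lies at 4.08 and 2.34 in the Rosi panels.

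The knockdown was seen in the RNA of its target. Nsd2 had an RPKM of 19.9 (D0) and 29.0 (D2) with Ctrl shRNA and of 5.85 and 7.01 with Nsd2 shRNA. The Ctrl cells themselves differed from the WT cells of the first experiment, which were also without K36M or KD. At D0 Col1a1 was 3-fold, Col1a2 3.39-fold and Col2a1 3.9-fold higher in Ctrl than in WT cells, and 7 of 23 collagen genes were higher (7.1% of all genes) and 3 lower (15.1%). At D2 Col1a2 and Col3a1 were 3.17-fold and 3.6-fold higher and Col4a2, Col6a3 and Col27a1 were lower, which made 2 of 19 higher (4.82% of all genes) and 3 lower (6.42%). The median log2 ratio over all genes was -0.22 at D0 and -0.14 at D2. Separately prepared cells without either treatment thus differed by up to 3.9-fold in named fibrillar genes. Col8a2 (1.34 in Ctrl and 0.194 in WT cells) and Col14a1 (1.33 and 0.305), both low, differed more at D0. These cells also carried different viruses, a retrovirus for WT H3.3 or a lentiviral Ctrl shRNA. With 1 library each, the preparation and the treatment cannot be told apart in any comparison between cell populations.

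Ctrl cells passed from D0 to D2 with less summed fibrillar RNA (2652 and 412) and more summed basement membrane RNA (168 and 419). Col1a1 went from 1678 to 89.9, which was 18.7-fold lower, Col1a2 from 484 to 35.3 and Col2a1 from 39.9 to 0.221. Col3a1 stayed within 2-fold, at 162 and 126, unlike in WT cells. Col4a1 (90.1 and 269), Col4a2 (62.7 and 148) and Col15a1 (13.2 and 276) were higher at D2, while Col6a1 (337 and 382) and Col6a2 (215 and 361) were not called. Lower were Col6a3 (139 and 58.6), which had been higher in WT cells, and Col4a5 (14.3 and 2.17). Over 24 genes, 6 were higher, against 11.3% of all genes, and 13 were lower, against 16.1%.

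In KD cells at D0, Col1a1, Col1a2, Col2a1, Col3a1 and Col8a1 were among the genes lower than in Ctrl cells. Col1a2 had an RPKM of 8.21 against 484, a log2 ratio of -5.88 [-5.99 to -5.78], or 59-fold lower. Col1a1 was 6.37-fold lower, 263 against 1678, and Col3a1 3.95-fold lower, 41.1 against 162. Col2a1 was at 0.338 against 39.9, a log2 ratio of -6.88 [-7.47 to -6.36], and Col8a1 at 1.02 against 14.3. Col4a1 (99.6 and 90.1), Col4a2 (56.3 and 62.7) and Col5a1 (106 and 118) had no call, whereas Col4a5 (6.38 and 14.3) and Col5a2 (75.5 and 163) of the same collagens were lower. Col6a3 (62.6 and 139) and Col15a1 (4.15 and 13.2) were lower too. Higher in KD cells was Col18a1, at 55.1 against 12, a log2 ratio of 2.20 [2.11 to 2.29], together with Col4a6, Col9a3, Col20a1 and Col27a1, which stayed under an RPKM of 3. Over 26 genes, 5 were higher, against 6.61% of all genes, and 12 were lower, against 10.8%.

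At D2 the KD cells had the least fibrillar RNA of the 14 libraries, a summed RPKM of 118 against 412 in Ctrl cells. Col1a1 was at 13.7 against 89.9, and Col1a2 at 1.32 against 35.3. Col3a1 was at 4.48 against 126, a log2 ratio of -4.81 [-4.95 to -4.67]. Col5a3 was 14.7-fold lower, at 0.567 against 8.36, and Col15a1 4.15-fold lower, at 66.5 against 276. Col6a1, Col6a2 and Col6a3 were 2.09-fold, 2.74-fold and 2.54-fold lower. Col4a1 (170 and 269) and Col4a2 (99.3 and 148) were not called, and Col18a1 was again higher, 61.7 against 13.8. Over 18 genes, 2 were higher, against 4.88% of all genes, and 9 were lower, against 9.57%.

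KD cells also passed from D0 to D2 with 1 of 22 collagen genes called higher, against 11.8% of all genes, and 13 lower, against 16.8%. The gene called higher was Col15a1, from 4.15 to 66.5. Col4a1 (99.6 and 170) and Col4a2 (56.3 and 99.3) had log2 ratios of 0.77 [0.74 to 0.81] and 0.82 [0.77 to 0.86] and were not called. The fibrillar genes lower at D2 were Col1a1, Col1a2, Col3a1, Col5a1, Col5a3 and Col11a1. Col5a3 went from 2.56 to 0.567 in KD cells and from 3.94 to 8.36 in Ctrl cells.

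The summed myofibroblast markers of Ctrl cells were 1667 (D0) and 10.5 (D2), and they were 168 and 9.04 in KD cells. They were lower in KD than in Ctrl cells at D0 and near 10 in both at D2. Preadipocyte markers summed to 193 and 38.3 in Ctrl cells and 226 and 36.4 in KD cells, and the sum in KD cells at D0 was mostly Dlk1 (171 against 38.1). Of the other preadipocyte markers at D0, Pdgfra (1.51 against 22.9), Pdgfrb (25.4 against 64.0) and Ly6a (25.9 against 67.7) were lower in KD cells. Cd34 was at 1.7 against 0.657. At D2 the sum in KD cells was again mostly Dlk1 (27.9 against 3.51). Pdgfra (0.354 against 4.98), Pdgfrb (5.88 against 17.6), Ly6a (1.91 against 11.7) and Cd34 (0.322 against 0.523) were then lower in KD cells. Adipocyte markers reached 1365 in Ctrl cells at D2 and 40.2 in KD cells, of which Fabp4 was 1269 and 34.5. The part of these differences in the collagen values was not tested.

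Chains of 1 protein were compared within each library. The RPKM ratio of Col1a1 to Col1a2 had a median of 3.69 over the 14 libraries and lay between 1.52 and 6.74 in the 12 libraries without KD. In KD cells it was 32.1 (95% counting interval 29.8 to 34.6) at D0 and 10.4 (8.59 to 12.6) at D2, above the other libraries. The ratio of Col4a1 to Col4a2, the head-to-head pair whose shared start is printed above, lay between 1.06 and 1.82 in the 14 libraries, KD included. The head-to-head neighbours Col4a5 (6.38 against 14.3) and Col4a6 (2.71 against 0.548) went different ways in KD against Ctrl cells at D0. Any part of the arrangement was not tested. Col6a1 to Col6a2 lay between 0.866 and 2, and Col6a1 to Col6a3 between 1.22 and 7.93. The tail-to-tail neighbours Col3a1 and Col5a2 differed in course, as Col3a1 was 5.17-fold lower with K36M at D0 while Col5a2 was at 166 and 167.

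**Figure D5:**
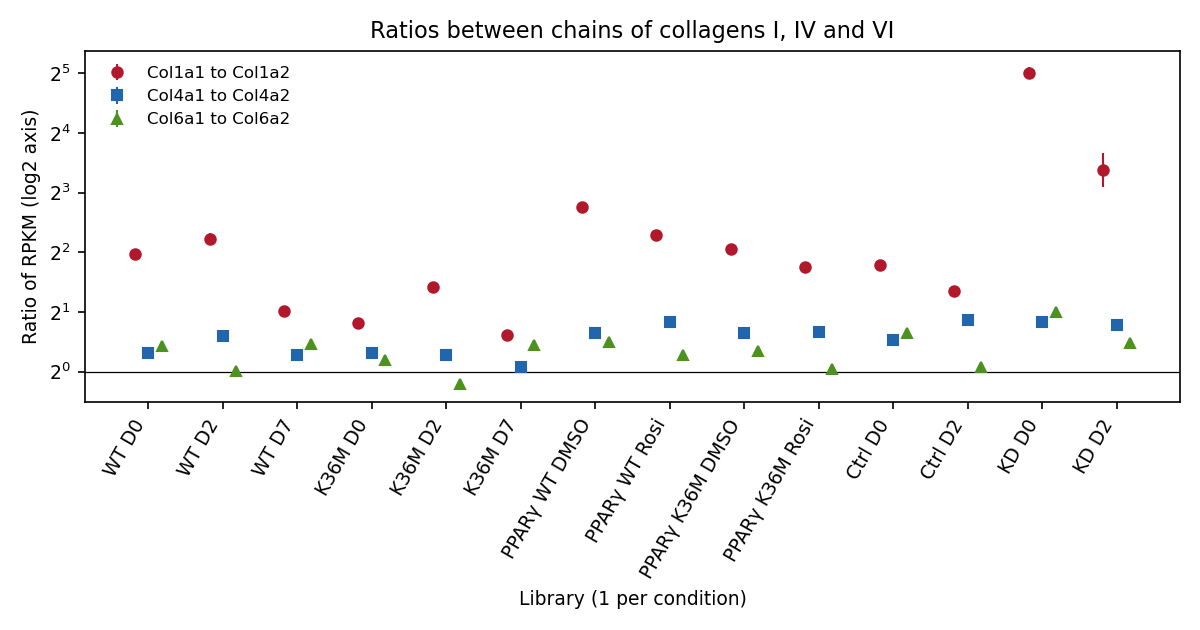
Ratio of RPKM between chains of collagens I, IV and VI (log2 axis) in each of the 14 libraries, with 95% counting intervals as bars. The ratio of Col1a1 to Col1a2 is 32.1 and 10.4 in the KD libraries and at most 6.74 in the others, while Col4a1 to Col4a2 stays between 1.06 and 1.82.

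Genes that modify, cut, cross-link or hold collagen were followed from a list of 57, of which 55 had a value. By mean RPKM the highest of these included Bgn (biglycan), Sparc (a collagen-binding matricellular protein), Serpinh1 (the collagen chaperone Hsp47) and Fn1 (fibronectin). In WT cells at D2 against D0, 3 of 48 counted were higher, against 9.38% of all genes, and 23 were lower, against 17.3%. Those higher were the laminin genes Lama5, Lamb1 and Lamc1, which encode the other network of the basement membrane, Lamb1 going from 90.0 to 224 and Lamc1 from 81.6 to 229, whereas the laminin gene Lamb2 was lower, from 31.0 to 6.1. Among those lower was Lox, the lysyl oxidase that cross-links fibrils, with an RPKM of 548 at D0 and 9.92 at D2, and it was at 361 at D7. From D2 to D7, 21 of 48 were higher, against 15.7%, and 2 were lower, against 5.08%, and the higher ones included Lox, Pcolce, the enhancer of procollagen cleavage (68.9 and 332), and Postn, periostin (35.1 and 204).

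In K36M cells 4 of 46 list genes were higher at D2 than at D0 and 4 lower, shares close to those of all genes (10.2% and 11.2%). Lox was at 316 and 118 in these cells. From D2 to D7 in K36M cells, 20 of 47 were higher, against 15.7% of all genes, and 1 was lower, against 7.02%. Set against WT cells, K36M cells at D0 had 2 of 48 higher (5.02% of all genes) and 10 lower (6.36%). At D2 they had 13 of 45 higher (11.2%) and 2 lower (4.37%), and at D7 they had 9 of 49 higher (11.7%) and 3 lower (8.46%).

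In KD cells against Ctrl cells, 2 of 47 list genes were higher (6.61% of all genes) and 18 lower (10.8%) at D0, and 2 of 43 were higher (4.88%) and 13 lower (9.57%) at D2. Serpinh1 was lower at both days, 167 against 603 and 146 against 332, and Lox was at 39.1 against 439 at D0 and at 6.60 against 9.10 at D2. Lama5 and P3h2, a prolyl 3-hydroxylase, were the 2 higher genes at both days, P3h2 with 23.3 against 2.86 at D0 and 9.65 against 0.905 at D2. With Rosi, 5 of 46 list genes were higher in PPARγ-expressing WT cells, a share close to that of all genes (9.96%), and 8 were lower, against 5.05%. Lama4, Lamc1, Nid2 and Agrn of the basement membrane were among the higher ones. In PPARγ-expressing K36M cells 0 of 44 were higher, against 7.9%, and 8 were lower, against 8.85%.

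The remaining collagen genes were low. The 10 genes that peaked between 1 and 5 were Col4a6, Col8a2, Col9a3, Col11a1, Col11a2, Col14a1, Col20a1, Col23a1, Col27a1 and Col28a1, with highest values from 1.33 (Col14a1) to 4.27 (Col11a1). Col11a2 moved between D0 and D2 from 0.334 to 1.18 with WT, from 0.683 to 2.04 with K36M and from 0.253 to 1.5 with Ctrl shRNA, a call in each, and was at 0.113 and 0.202 with Nsd2 shRNA. Col23a1, a transmembrane collagen, stood at 1.23 (D2) and 2.17 (D7) with K36M and at 0.265 or less in the other 12 libraries. The 15 genes under 1 had highest values from 0.0406 (Col9a1) to 0.905 (Col10a1), and Col10a1 marks hypertrophic cartilage and Col17a1 the anchorage of epithelia.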

How the data were processed

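RNA-Seq of 14 libraries of immortalized mouse brown preadipocytes was used, 1 per condition. As deposited by the authors, each library holds RPKM for 29082 RefSeq transcripts, that is, reads divided by transcript length and by mapped reads, with no scaling between libraries. Poly(A) RNA was purified with Dynabeads per the labels. The submitters' processing notes name mm9, CASAVA 1.8.2 and SICER without a role, and the aligner and counter of the RNA-Seq reads, and whether counting used strand, are not given in the sources used here. The paper describes preadipocytes from WT mice, whereas the labels say GR-flox/flox. The ChIP-Seq samples were left out.

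Symbols were assigned to 28436 of 29082 transcripts (97.8%) from RefSeq tables (GRCm38.p6, names only), which gave 1 row for 43 of 44 collagen symbols; Col12a1 had none and was not used here. RPKM was turned back into whole reads for 26946 of 26946 transcripts that were above 0 in 2 or more libraries (100%), which gave the mapped reads of each library (12213559 to 24365867); 1275 transcripts above 0 in 1 library were not recovered. With 1 library per condition a count test has no residual spread, so none was run and no p-value is given. A gene was called when its RPKM ratio was over 2-fold and RPKM was at least 1 in at least 1 of the 2 libraries, the fold threshold being that of the study. Counting intervals (95%, Clopper-Pearson) were computed with scipy 1.17.1 under Python 3.11.15 and cover counting error only. Named were collagen genes reaching an RPKM of 5 in any library and, among the rest, called genes. Of the assembly list, called genes and those with the highest mean RPKM were named. The members, classes and lists were chosen with earlier results of these data known. The 15 comparisons of conditions and 2 of control populations share libraries. Scripts were tested on simulated data. Alternatives were a filter of RPKM above 0, a pseudocount of 1, rescaling by the median ratio, a required counting interval and summed transcripts.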

Additional observations from a re-analysis of the deposited data

Results flagged for a closer look

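Col3a1 from D0 to D2 moved in opposite directions in WT and K36M cells, with log2 ratios of -2.02 and 1.86. This was picked out because the single library pair of each kind of cell moved past 2-fold in opposite directions, and the difference was not tested. Its levels were 142 and 34.8 in WT and 27.4 and 99.2 in K36M cells, and in Ctrl cells they were 162 and 126. Col5a3 from D0 to D2 was picked out for the same reason in Ctrl and KD cells, with log2 ratios of 1.09 and -2.18, and this difference was not tested either. The call in Ctrl cells, at 2.12-fold, was lost on rescaling by the median ratio and with a pseudocount of 1. Its levels were 3.94 and 8.36 in Ctrl and 2.56 and 0.567 in KD cells, and 11.3 and 12.4 in WT cells.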

How the results depend on the processing

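No paired analysis was possible because each condition had 1 library and no result came from a test, and no replicate could be left out. Counts of called collagen genes were within 1.5 times the reported count in 30 of 30 cases when the counting interval also had to exclude 1, in 29 of 30 when libraries were rescaled by the median ratio and in 30 of 30 when transcripts were summed. Rescaling took K36M against WT at D0 from 2 higher to 0, since Col4a1 and Col4a2 lay next to the limit. Counting every gene with RPKM above 0 moved 22 of 30 counts past 1.5 times the reported one. The lower counts became 21 for WT D2 against D0, 12 for K36M D2 against D0, 22 for Ctrl and 21 for KD D2 against D0, 15, 2 and 7 for K36M against WT at D0, D2 and D7, 7 for Rosi in WT cells, 2 for K36M against WT with DMSO, and 21 and 17 for KD against Ctrl at D0 and D2. The higher counts became 20 for WT and 17 for K36M D7 against D2, 3 for KD D2 against D0, 9, 20 and 16 for K36M against WT at D0, D2 and D7, 8 and 7 for Rosi in WT and K36M cells, 16 and 15 for K36M against WT with DMSO and Rosi, and 7 for KD against Ctrl at D2. The added genes had RPKM under 1 in both libraries by construction. A pseudocount of 1 moved 9 of 30 counts past the same limit, to 3 lower for K36M D7 against D2, 3 higher for Ctrl D2 against D0, 4 higher for K36M against WT at D7, 1 higher for Rosi in K36M cells, 2 higher and 0 lower for K36M against WT with DMSO, 1 higher with Rosi, and 3 and 1 higher for KD against Ctrl at D0 and D2. A pseudocount shrinks the ratios of low genes most, by construction.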
